A study of Mus musculus with 12 samples.

Results

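Slco4c1, Gpr141, Gpr65 and Cd33 encode proteins of the cell surface, and they were chosen by the measured difference in RNA level with EMPA, which was not the same after infarction as after sham operation. They are 4 of the 53801 genes in the tables, and all 4 passed the filter on low counts that left 15119 genes for testing. Bone marrow RNA from C57BL/6N mice was sequenced in 4 groups of 3 libraries: Sham, Sham-E (sham mice given EMPA), MI (myocardial infarction, made by tying off the left anterior descending coronary artery) and MI-E (infarcted mice given EMPA). All 12 libraries are whole marrow of 1 strain, and the sources used here do not give the age of the mice, the dose of EMPA or the time from surgery to sampling. The series title concerns naive marrow B lymphocytes and heart function, and the 4 genes were not its declared subject. Libraries are named by group and by the number in the deposited column (1, 3 and 4 for Sham, 2, 3 and 4 for MI-E). Nothing in the labels says that the libraries came from separate mice, so every p-value measures only the spread between these samples, which may be technical.

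The 4 genes belong to 3 kinds of protein. Slco4c1 encodes an organic anion transporting polypeptide, a membrane carrier best known from the kidney, where it moves organic anions such as cardiac glycosides and thyroid hormone. Gpr141 and Gpr65 are G protein-coupled receptors: Gpr141 is an orphan receptor with no settled ligand, and Gpr65 senses acid outside the cell and couples to the G protein Gs, which raises cyclic AMP. Cd33 is a Siglec, a receptor that binds sialic acid on glycans and marks the myeloid lineage; in humans it carries inhibitory motifs in its tail. Which marrow cells the RNA of the 4 genes came from was not measured in whole marrow. In bulk tissue, fewer cells of a type and less RNA per cell cannot be told apart.

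Slco4c1 lies on the minus strand of mm10 at chr1:96816270-96872171 (ENSMUSG00000040693) and has 1 annotated transcript of 13 exons and 4908 bases. Gpr141 lies on the minus strand at chr13:19749682-19824257 (ENSMUSG00000053101), with 2 coding transcripts of 3433 and 646 bases and 2 retained-intron transcripts. Gpr65 lies on the plus strand at chr12:98268635-98276644 (ENSMUSG00000021886), with 1 transcript of 2 exons and 2069 bases. Cd33 lies on the minus strand at chr7:43524216-43544428 (ENSMUSG00000004609), with 6 transcripts, of which 4 are coding, from 933 to 5728 bases. The antisense gene Gm47566 shares 511 exon bases with Gpr65, 24.7% of the Gpr65 exons, and was listed at 0 in all 12 libraries. The sources used here do not say whether the counting used strand, so reads of the shared stretch cannot be assigned to a strand. Panct2 and Gm19154 overlap Slco4c1 and Gpr141 on the opposite strand and share 0 exon bases with them. The gene models are those of GENCODE M21.

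The 250 bases before each RefSeq start (GRCm38.p6) are printed below, 5′ to 3′ on the strand of the gene, because the 4 genes shared a pattern across the groups. All 4 were matched. Capitals mark the core letters bound by PU.1, a master regulator of myeloid genes (GAGGAA, or TTCCTC on the other strand), and by RUNX factors (TGTGGT, or ACCACA on the other strand). The windows are chr1:96872172-96872421 for Slco4c1, chr13:19824258-19824507 for Gpr141, chr12:98268385-98268634 for Gpr65 and chr7:43533172-43533421 for Cd33; the Cd33 start in RefSeq lies inside the longer GENCODE gene.
Slco4c1: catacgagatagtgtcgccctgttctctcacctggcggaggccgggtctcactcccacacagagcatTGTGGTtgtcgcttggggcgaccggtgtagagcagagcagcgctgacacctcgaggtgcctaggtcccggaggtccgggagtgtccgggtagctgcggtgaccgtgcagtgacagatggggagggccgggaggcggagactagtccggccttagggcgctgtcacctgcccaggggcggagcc
Gpr141: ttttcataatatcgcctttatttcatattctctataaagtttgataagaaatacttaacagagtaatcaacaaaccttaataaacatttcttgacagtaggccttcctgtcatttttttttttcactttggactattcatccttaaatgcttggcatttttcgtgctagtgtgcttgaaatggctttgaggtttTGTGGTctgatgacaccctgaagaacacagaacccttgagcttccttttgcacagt
Gpr65: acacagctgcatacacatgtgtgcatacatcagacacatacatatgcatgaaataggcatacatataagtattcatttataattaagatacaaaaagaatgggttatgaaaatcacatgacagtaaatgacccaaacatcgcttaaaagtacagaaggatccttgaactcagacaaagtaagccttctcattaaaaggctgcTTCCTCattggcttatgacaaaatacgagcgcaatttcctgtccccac
Cd33: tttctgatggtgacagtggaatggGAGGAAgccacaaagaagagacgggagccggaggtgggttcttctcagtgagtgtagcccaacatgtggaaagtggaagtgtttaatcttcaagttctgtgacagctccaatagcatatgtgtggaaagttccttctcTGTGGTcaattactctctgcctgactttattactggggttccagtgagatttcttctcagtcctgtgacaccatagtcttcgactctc

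The PU.1 letters occurred in the windows of Gpr65, 48 to 43 bases before its start, and Cd33, 226 to 221 bases before its start. They occurred in 23.3% of the 32851 promoter windows of the same length. The RUNX letters occurred in Slco4c1 (183 to 178 bases before the start), Gpr141 (56 to 51) and Cd33 (88 to 83), against 14% of all windows. No motif was shared by all 4. The letters of C/EBP (TTGCNNAA, in 9.56% of windows), AP-1 (TGANTCA, 6.75%) and the cyclic AMP response element (TGACGTCA, 1.55%), each searched on both strands, were in none of the 4 windows. The windows differed widely in base composition. The Slco4c1 window was 66.4% G or C, higher than 85.2% of windows, whereas those of Gpr141 (34.8%) and Gpr65 (36.8%) were higher than only 4.59% and 6.74% of windows. The Cd33 window lay between them at 46.8%. The matches are descriptions of letters and not of bound sites.

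Total counts per library ran from 21175087 to 24606783, and the smallest count of any of the 4 genes in any library was 565. Markers of the marrow lineages were present in all groups, with no listed marker at 0 throughout. The library Sham-E 1 stood apart from the rest: its B-lineage markers had a mean of 3.82 log2 CPM against 7.01 and 7.03 in the other Sham-E libraries, and its granulocyte precursor markers summed to 9968 CPM against at most 4568 in the other 11. Among the MI libraries, MI 3 had the highest macrophage markers (1726 CPM in sum) and erythroid markers (43122 CPM in sum) of all 12. Some results are also given without them: the Sham-E minus Sham differences without Sham-E 1, and the MI-E minus MI difference of Cd33 without MI 3.

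The MI libraries held the most transcript of all 4 genes on the count scale. Levels are CPM, which are read counts scaled to a common total, over library sizes scaled by TMM, a factor that equalises the bulk of genes between libraries. Slco4c1 read 41.4, 37.1 and 37.1 CPM in Sham, 50.1, 43.1 and 39.7 in Sham-E, 61.8, 66.4 and 66.9 in MI, and 39.2, 34.5 and 34.1 in MI-E. The 3 MI libraries stood clear of the other 9, and the other 3 groups ran into each other. Group means were 38.5 ± 2.51 CPM in Sham, 44.3 ± 5.30 in Sham-E, 65.0 ± 2.81 in MI and 35.9 ± 2.86 in MI-E (SD, n = 3).

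Gpr141 read 72.3, 67.7 and 69.0 CPM in Sham, 111, 85.5 and 94.5 in Sham-E, 116, 126 and 112 in MI, and 79.2, 92.0 and 80.9 in MI-E. Every library of the other 3 groups lay above every Sham library, and every MI library above all others, though MI 3 and Sham-E 1 were nearly level (112 and 111 CPM). Group means were 69.7 ± 2.4 CPM in Sham, 96.9 ± 12.7 in Sham-E, 118 ± 7.03 in MI and 84.0 ± 6.97 in MI-E (SD, n = 3). Gpr141b, the paralog of Gpr141, was close to undetected, with 1 to 22 counts per library, and the 2 were counted as separate genes.

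Gpr65 read 24.1, 31.0 and 27.9 CPM in Sham, 39.5, 38.3 and 39.3 in Sham-E, 48.6, 62.2 and 54.9 in MI, and 36.5, 39.3 and 28.8 in MI-E. Sham was lowest and MI highest, with Sham-E between them and without overlap with either. Group means were 27.7 ± 3.45 CPM in Sham, 39.0 ± 0.620 in Sham-E, 55.2 ± 6.80 in MI and 34.9 ± 5.42 in MI-E (SD, n = 3).

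Cd33, the most abundant of the 4, read 277, 249 and 224 CPM in Sham, 247, 291 and 221 in Sham-E, 389, 467 and 563 in MI, and 276, 263 and 230 in MI-E. Only MI stood apart. The other 3 groups had means of 249.8 ± 26.3, 253 ± 35.3 and 256.5 ± 23.5 CPM in Sham, Sham-E and MI-E, which do not differ beyond their spread, against 473 ± 87.0 in MI (SD, n = 3). The library MI 3 was the highest of the MI libraries for Cd33 and the lowest of them for Gpr141.

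**Figure D1:**
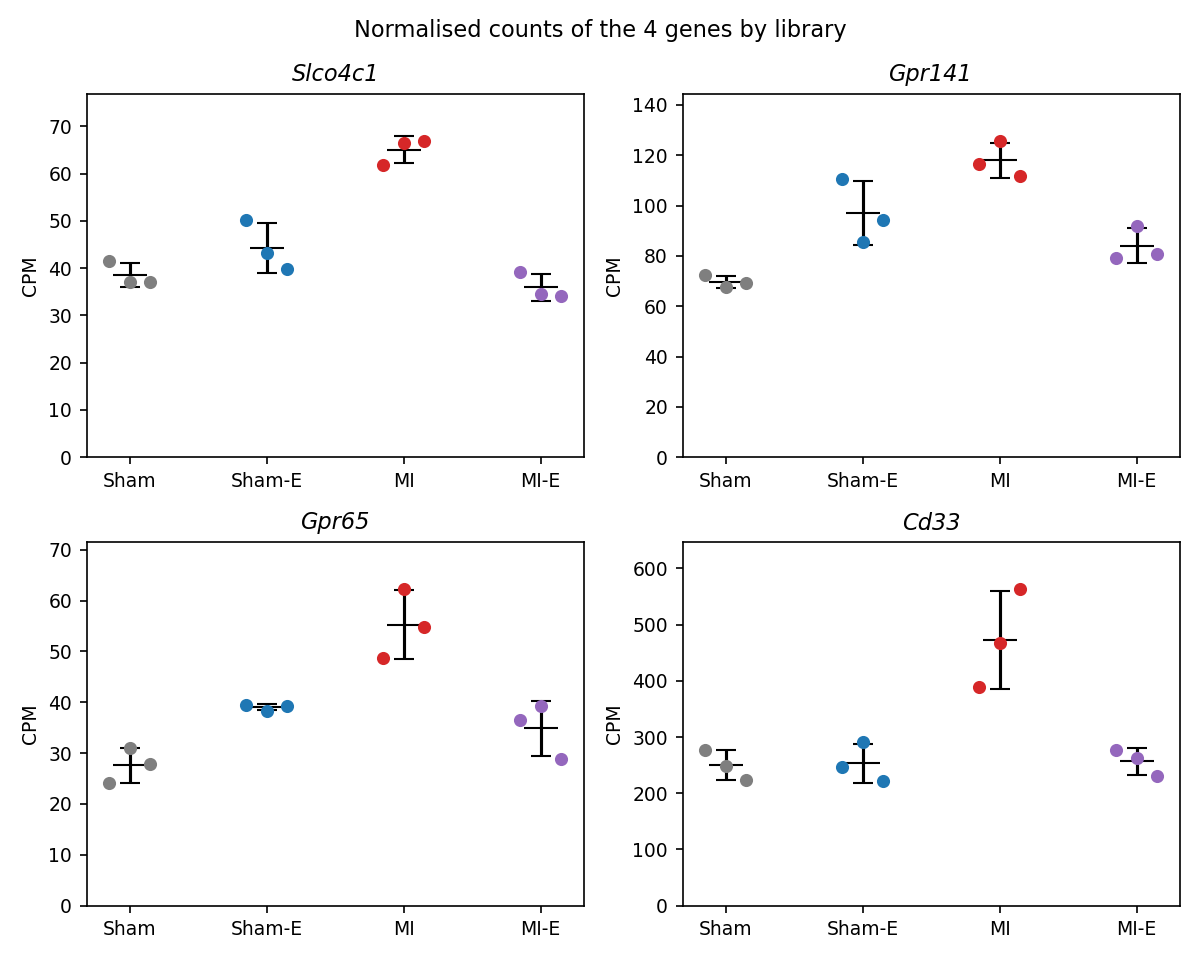
Normalised counts (CPM, vertical axes from 0) of the 4 genes in the 12 libraries; points are libraries, and black bars are the group mean with SD (n = 3). The MI points of each gene lie above the other 9 points, and Sham-E lies clear of Sham for Gpr141 and Gpr65 and overlaps it for Slco4c1 and Cd33.

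All 4 genes had every MI library above each of the other 9 libraries, a pattern shown by 299 of the 15119 genes (1.98%). All 4 had every MI-E library below every MI library, as did 1525 genes (10.1%). Every Sham-E library lay above every Sham library for Gpr141 and Gpr65, as for 683 genes (4.52%), and 151 genes (0.999%) met both of the last patterns. These counts describe the contrast that chose the genes, and nothing is read from them about the 4.

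The values in this paragraph chose the genes, so they are given with no test. In infarcted marrow, MI-E minus MI was −0.86 ± 0.12 (SE) on the log2 scale for Slco4c1, −0.49 ± 0.12 for Gpr141, −0.66 ± 0.15 for Gpr65 and −0.88 ± 0.17 for Cd33. These are levels of 0.552, 0.712, 0.631 and 0.542 times those of MI. In sham marrow, Sham-E minus Sham was 0.20 ± 0.12 (SE) for Slco4c1 and 0.02 ± 0.17 for Cd33, against 0.48 ± 0.12 for Gpr141 and 0.50 ± 0.15 for Gpr65. The fitted differences thus had opposite signs for all 4 genes, but the sham difference of Cd33 was near 0 and its sign was not stable. It kept its sign in 14 of 20 alternative fits, which gave −0.10 to 0.11. Sham and Sham-E libraries overlapped for Slco4c1 and Cd33. Among all genes tested, 0 of 15119 genes (0%) passed in Sham-E minus Sham by edgeR, where 287 had an unadjusted p under 0.05 and DESeq2 called 2, Bglap and Iglv2, named after their values were seen. A pair of differences of these opposite signs, whatever their size, was present in 4933 genes (32.6%).

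Without the library Sham-E 1, the Sham-E minus Sham difference was 0.11 for Slco4c1, 0.37 for Gpr141, 0.49 for Gpr65 and 0.04 for Cd33 on the log2 scale. The value for Slco4c1 rested in large part on that library, and that for Gpr65 hardly moved. Without MI 3, the MI-E minus MI difference of Cd33 went from −0.88 to −0.74. Subtracting the sham difference from the infarct difference gives the interaction. It was −1.06 ± 0.17 (SE) for Slco4c1, −0.96 ± 0.17 for Gpr141, −1.16 ± 0.21 for Gpr65 and −0.90 ± 0.24 for Cd33. Over all genes tested its median was −0.04, and 1 of 15119 genes (0.00661%) passed by edgeR, which was none of the 4 but B430305J03Rik, named after its values were seen. The rule named no threshold for this value, so there are no values just inside and outside it.

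**Figure D2:**
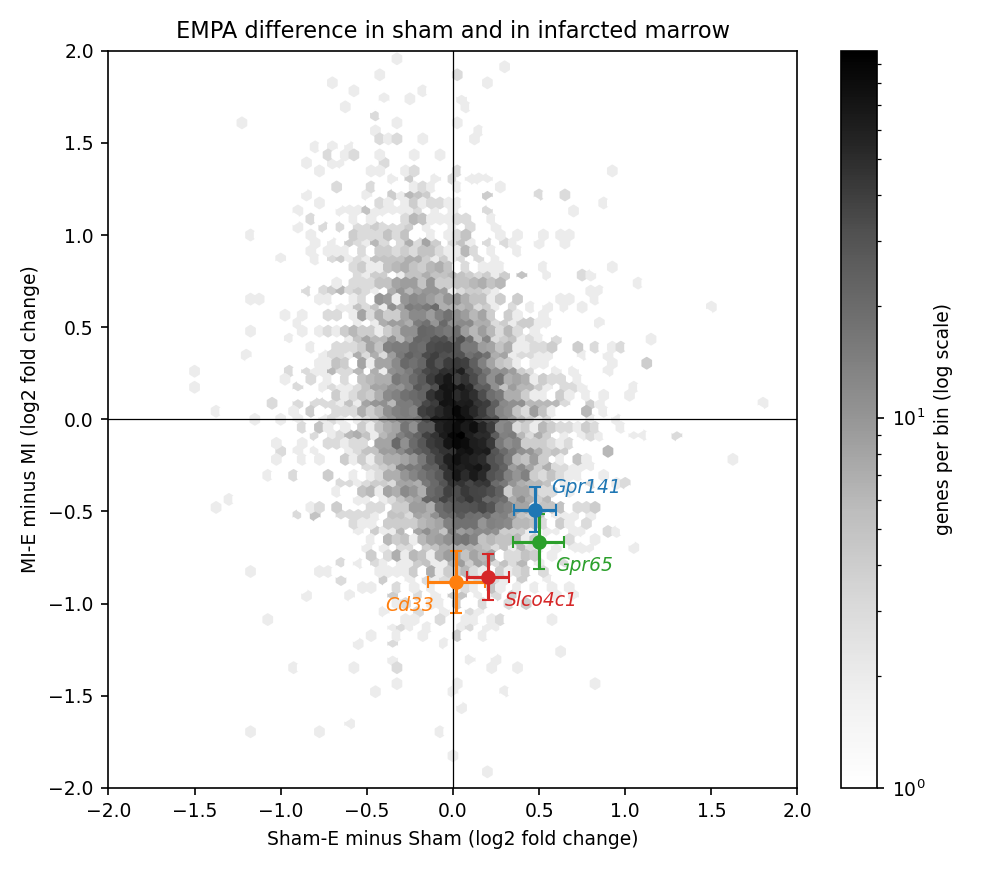
Log2 fold change with EMPA in sham marrow (horizontal) against that in infarcted marrow (vertical); grey bins count all genes tested on a log scale, coloured points are the 4 genes with standard errors, and 187 genes fall outside the axes. Gpr141 and Gpr65 lie to the lower right, at 0.48 and 0.50 on the horizontal axis, and Cd33 lies near 0 on it.

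Between the groups without EMPA, all 4 genes had estimates well above 0. MI minus Sham was 0.76 ± 0.12 (SE) for Slco4c1, 0.76 ± 0.12 for Gpr141, 1.00 ± 0.15 for Gpr65 and 0.92 ± 0.17 for Cd33 on the log2 scale. Between the groups given EMPA, 3 of the 4 estimates were below 0. MI-E minus Sham-E was −0.30 ± 0.12 for Slco4c1, −0.21 ± 0.12 for Gpr141, −0.16 ± 0.15 for Gpr65 and 0.02 ± 0.17 for Cd33. These differences share their groups with the contrast that chose the genes and are a description too.

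2 averaged contrasts use the same libraries in a combination that the choice of genes did not use, and these were tested, with the same estimate of the spread. The choice may have favoured genes of small spread, so the p-values and SEs of these contrasts are not wholly free of it. The infarction effect averaged over treatments asks whether infarcted marrow differed from sham marrow whether or not EMPA was given. By edgeR's quasi-likelihood test with Benjamini-Hochberg adjustment over all genes, 0 of the 4 passed an adjusted p of 0.05, where 43 of 15119 genes did (0.284%). The estimates were all above 0. Slco4c1 was 0.23 ± 0.09 (SE; edgeR adjusted p = 0.17), Gpr141 0.28 ± 0.09 (0.11), Gpr65 0.42 ± 0.11 (0.079) and Cd33 0.47 ± 0.12 (0.078). The median over all genes was 0.01. Before adjustment all 4 had a p under 0.05, as had 3076 genes (20.3%). Without the library Sham-E 1, Gpr141 (0.33, edgeR adjusted p = 0.026), Gpr65 (0.42, 0.035) and Cd33 (0.46, 0.037) passed, as did 1616 of 15496 genes in all. Without MI 2, Cd33 alone of the 4 passed (0.47, edgeR adjusted p = 0.040), and 1421 of 15506 genes passed in all. With 1 library left out the groups are unequal, and the averaged contrast is no longer separate from the one that chose the genes. Nothing is read about the 4 genes from these passes.

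The EMPA effect averaged over operations asks whether marrow with EMPA differed from marrow without it over both operations. By edgeR 0 of the 4 genes and 0 of 15119 genes (0%) passed, whereas 869 had an unadjusted p under 0.05 (5.75%), Slco4c1 and Cd33 among them, and DESeq2 called 9 genes. The transporter and the Siglec had larger estimates than the receptors, a difference that was not tested. Slco4c1 was −0.33 ± 0.09 (SE; edgeR adjusted p = 0.81) and Cd33 −0.43 ± 0.12 (0.81). Gpr141 was −0.01 ± 0.09 (0.99) and Gpr65 −0.08 ± 0.11 (0.91), where the differences in sham and in infarcted marrow were of opposite sign. The Gpr141 estimate changed sign, to at most 0.03, when any of 6 libraries was left out (Sham 1, Sham-E 2, Sham-E 3, MI 2, MI-E 2 or MI-E 4).

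Levels between genes are comparable only per transcript length, for which the tables give TPM, in which counts are divided by transcript length before scaling. Cd33 was highest in each group and Slco4c1 lowest. In MI the means were 120.8 ± 24.9 TPM for Cd33, 46.8 ± 6.88 for Gpr141, 34.1 ± 5.63 for Gpr65 and 15.6 ± 1.26 for Slco4c1 (SD, n = 3), and in Sham they were 77.9 ± 10.9, 35.0 ± 3.75, 19.0 ± 2.12 and 10.3 ± 0.858 TPM in the same order. The order of the groups within a gene changed with the scale for Gpr141. Its TPM were 39.3, 33.5 and 32.3 in Sham, 55.2, 46.8 and 45.1 in Sham-E, 42.2, 54.7 and 43.5 in MI, and 33.7, 30.7 and 34.1 in MI-E. Sham-E and MI overlapped on this scale, with Sham-E the higher mean (49.0 against 46.8 TPM), and MI-E overlapped Sham where on the CPM scale it lay above it. For Gpr65, Sham-E (26.6 ± 0.913 TPM) and MI-E (20.6 ± 3.16 TPM) no longer overlapped. Slco4c1, Gpr65 and Cd33 kept MI as the group above all others without overlap.

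**Figure D3:**
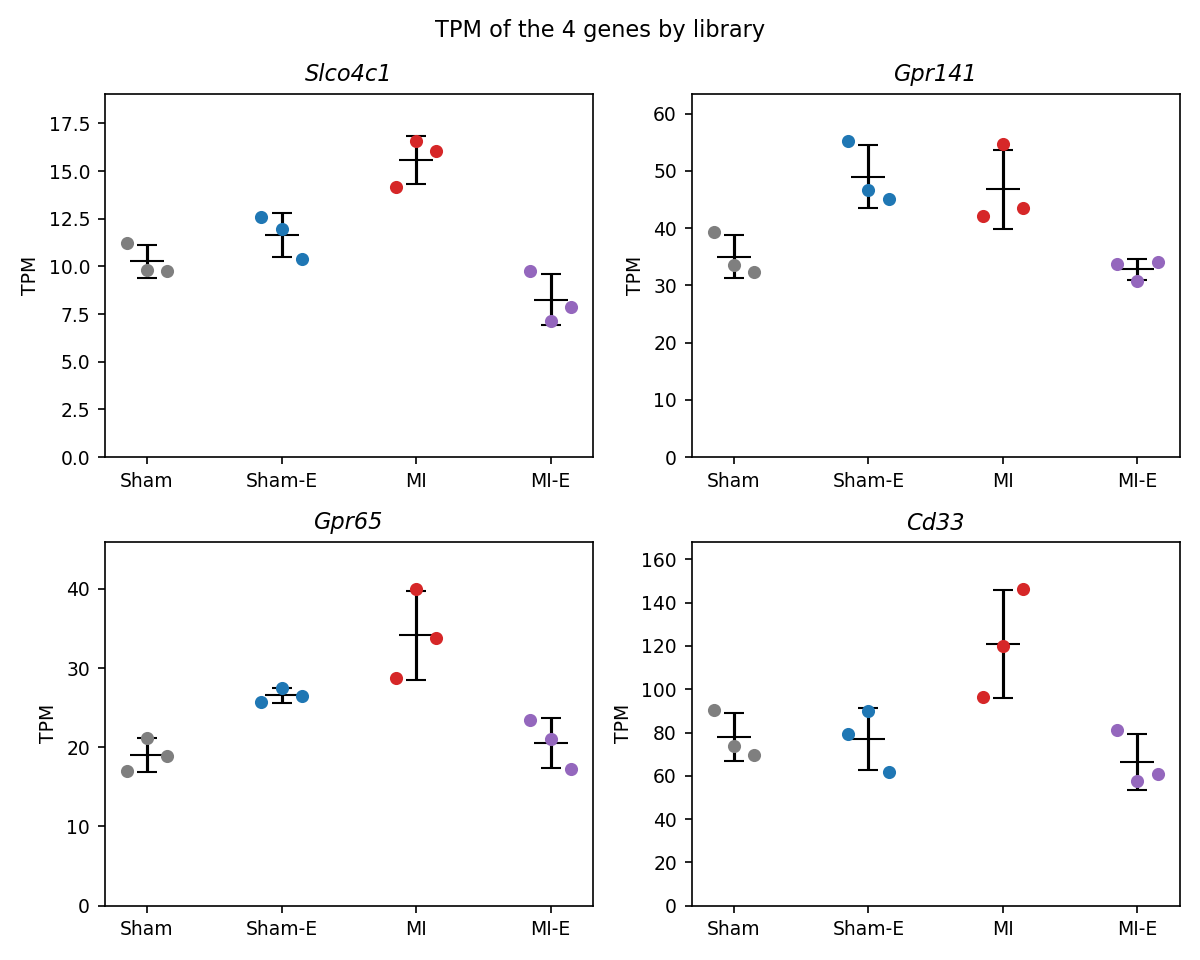
TPM (vertical axes from 0) of the 4 genes in the 12 libraries; points are libraries, and black bars are the group mean with SD (n = 3). For Gpr141 the Sham-E points reach the MI points, with means of 49.0 and 46.8 TPM, whereas MI remains highest for the other 3 genes.

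Going from CPM to TPM moved the median of all genes in the infarction contrast by −0.16 on the log2 scale (12941 genes). Relative to that median, the averaged infarction difference on CPM and on TPM was 0.22 and 0.20 for Slco4c1, 0.41 and 0.37 for Gpr65, and 0.46 and 0.36 for Cd33. Gpr141 went from 0.27 to 0.07. Its averaged infarction estimate before that correction was −0.08 on log2(TPM + 1), with a limma adjusted p of 0.66, so that its sign turned in the TPM fit unless the shift of all genes was taken off. The interaction did not turn for any of the 4, at −1.02, −0.96, −1.17 and −0.82 on TPM for Slco4c1, Gpr141, Gpr65 and Cd33.

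Counts and TPM together give the mean length of the transcripts that were counted for a gene, after the insert length of the library is removed. For Slco4c1 and Gpr65, with 1 transcript each, group means of this length came to 4908 to 4909 and 2069 bases, the annotated lengths. Both genes met the limits set for the insert fit, so this match was built in and is no check of the method. Gpr141 transcripts averaged 2744 ± 142 bases in Sham, 2683 ± 110 in Sham-E, 3087 ± 142 in MI and 2984 ± 168 in MI-E (SD, n = 3). No MI library overlapped Sham (2929 to 3205 against 2599 to 2882 bases), and no MI-E library overlapped Sham-E (2817 to 3152 against 2611 to 2810 bases). How many other genes with several transcripts had such a shift was not counted, so the shift is not read as particular to Gpr141. The mean length was 322 bases longer after infarction within treatments, with an exact two-sided permutation p of 0.005, the smallest that the 400 arrangements can give, and an adjusted p of 0.02 over 4 such tests. The test was chosen after the values were seen. The estimate stayed between 279.9 and 363.7 bases when 1 library was left out, and its adjusted exact p then ran from 0.02 to 0.06, passing 0.05 in 5 of 12 cases. With EMPA the Gpr141 length differed by −81.5 bases (exact p = 0.325, adjusted 0.433).

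For Cd33 the mean length was 4241 ± 144 bases in Sham, 4321 ± 365 in Sham-E, 4631 ± 133 in MI and 4392 ± 251 in MI-E (SD, n = 3). The mean length was 230 bases longer after infarction within treatments (exact permutation p = 0.15, adjusted 0.3), a difference that did not pass. With EMPA it differed by −79.7 bases (exact permutation p = 0.58, adjusted 0.58). How reads were divided among the transcripts of a gene is an estimate of the counting program, and the sources used here do not name the annotation behind it.

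The mean insert length moved with the groups. It was 286 ± 1.61 bases in Sham, 277 ± 5.12 in Sham-E, 264 ± 1 in MI and 281 ± 1.19 in MI-E (SD, n = 3), so the MI libraries, which were highest for the 4 genes, had the shortest inserts without overlap. Its part in the levels of the 4 genes and in the Gpr141 length was not tested.

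**Figure D4:**
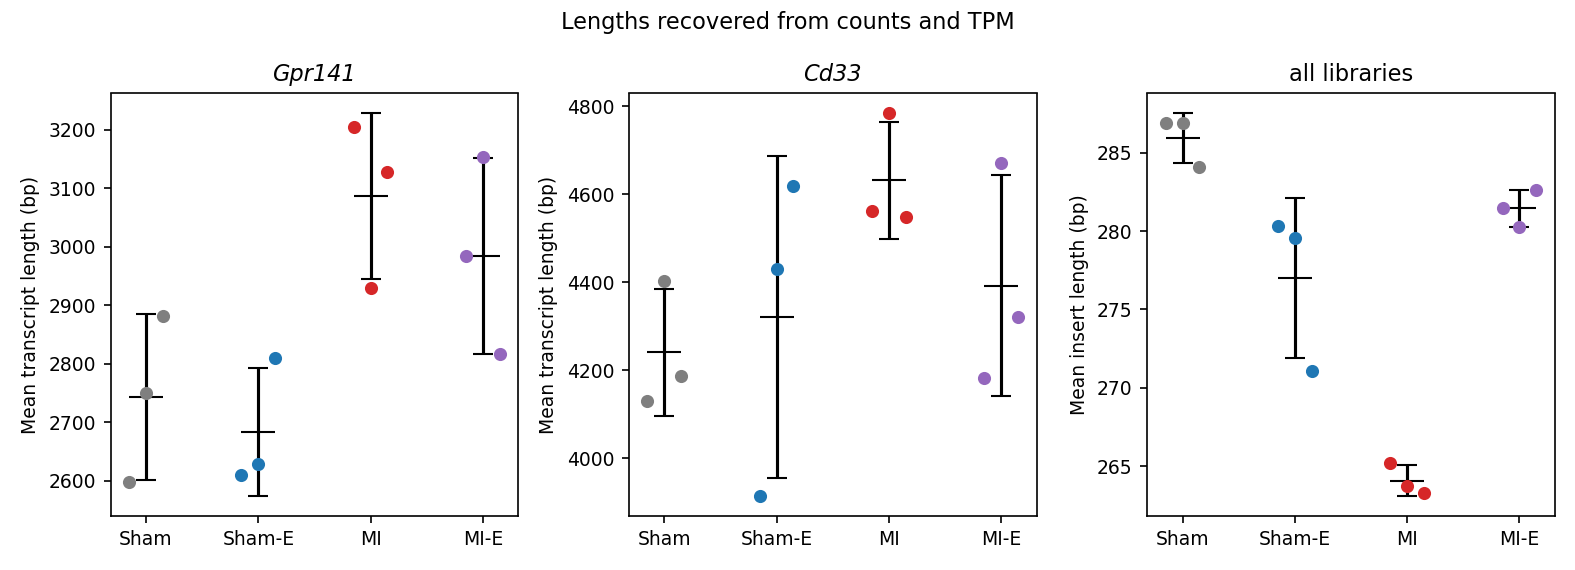
Mean transcript length of Gpr141 and Cd33 and mean insert length of the libraries (bases, vertical axes not starting at 0), recovered from counts and TPM; points are libraries, and black bars are the group mean with SD (n = 3). Gpr141 averages 3087 bases in MI against 2744 in Sham, and inserts average 264 bases in MI against 286 in Sham.

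Relatives of the 4 genes did not form a block with them in the averaged infarction contrast. Of 15 organic anion transporters, 6 were tested and 6 others were listed at 0 in all libraries. None passed by edgeR, and 2 of 6 estimates were above 0 (median −0.10 against 0.01 for all genes). Slco4a1, the closest relative of Slco4c1, was −0.56 ± 0.15 (SE; edgeR adjusted p = 0.085), opposite in sign to Slco4c1. Slco2b1 was 0.21 ± 0.21 (0.63), Slco3a1 −0.02 ± 0.15 (0.95), Slco5a1 −0.17 ± 0.39 (0.85) and Slco2a1, a prostaglandin carrier, −0.33 ± 0.45 (0.73).

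Gpr132 and Gpr4 are receptors related to Gpr65 that respond to protons, and neither passed by edgeR. Their averaged infarction estimates were above 0, as was that of Gpr65. Gpr132, expressed in lymphocytes and myeloid cells, was 0.20 ± 0.13 (SE; edgeR adjusted p = 0.39), and Gpr4, a receptor of endothelium, 0.51 ± 0.44 (0.55). Gpr132 had a mean of 24.1 ± 4.17 CPM in Sham, 24.7 ± 1.83 in Sham-E, 28.6 ± 3.29 in MI and 27.5 ± 6.25 in MI-E (SD, n = 3). Gpr4 was scarce, with group means of 0.409 to 0.862 CPM.

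Of 9 Siglecs, 8 were tested and none passed by edgeR, with 4 estimates above 0 and 4 below (median −0.08). Mag, known from myelin, was 0.68 ± 0.15 (SE; edgeR adjusted p = 0.072) at 3.04 ± 0.0694 CPM in Sham and 4.64 ± 0.246 in MI (SD, n = 3). Siglece, an inhibitory Siglec of neutrophils, was 0.47 ± 0.20 (0.21), the same size as Cd33 with a wider error. Siglecf, a marker of eosinophils, was 0.15 ± 0.21 (0.72). The estimates of the other 4 were below 0. Cd22 and Siglecg, both of B cells, were −0.31 ± 0.13 (0.22) and −0.53 ± 0.19 (0.15), Siglech of plasmacytoid dendritic cells −0.47 ± 0.22 (0.26) and Siglec1 of macrophages −0.61 ± 0.20 (0.12). Siglec15 had at most 11 counts.

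**Figure D5:**
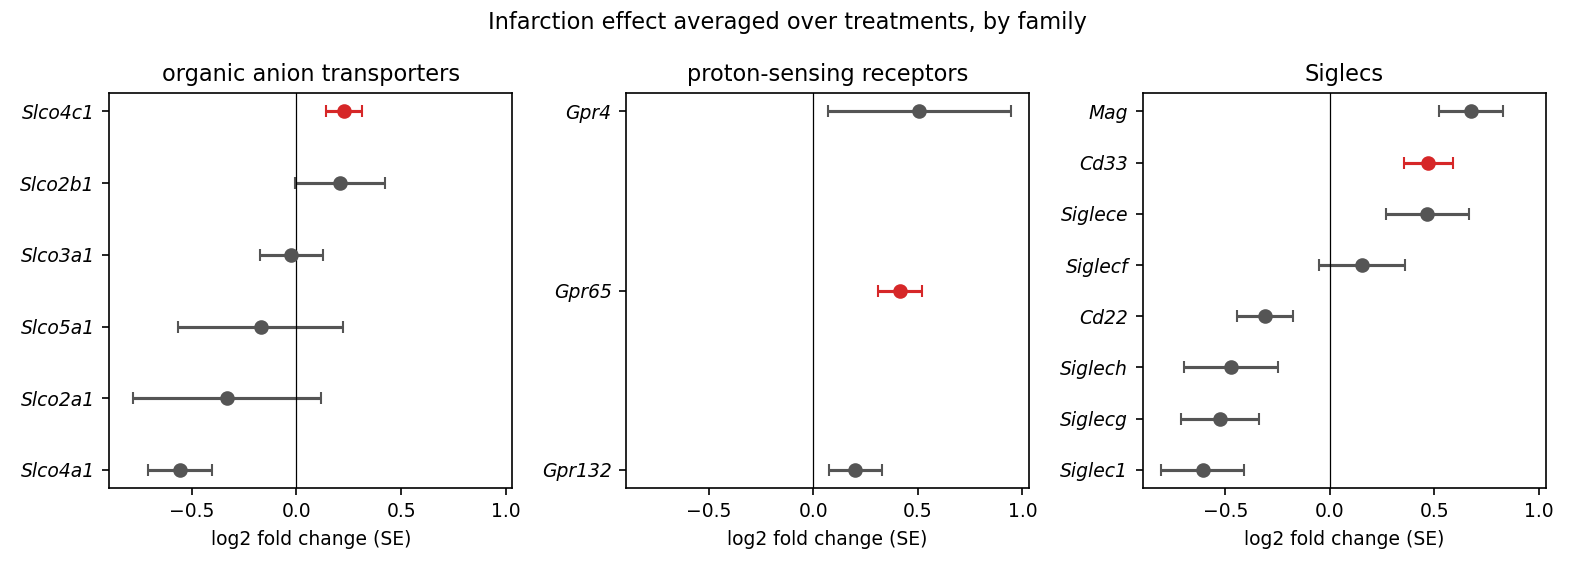
Averaged infarction difference (log2 fold change, horizontal, bars are SE) of tested members of 3 families; red points are Slco4c1, Gpr65 and Cd33, and grey points are their relatives. Slco4a1 lies at −0.56 opposite to Slco4c1, Gpr65, Gpr132 and Gpr4 lie above 0, and the Siglecs lie on both sides of 0.

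Wider lists of receptors and pathways were read in the same contrast. Of 34 leukocyte G protein-coupled receptors, Gpr141 and Gpr141b included, 1 rose and 0 fell by edgeR. It was Fpr2, a receptor for formyl peptides, at 0.81 ± 0.14 (SE; edgeR adjusted p = 0.045), where 21 of 15119 genes (0.139%) rose. That call held in 3 of the 12 fits that left out 1 library (Sham-E 1, MI 2 or MI 3), with edgeR adjusted p from 0.0045 to 0.17. The estimates of 28 were above 0, against 51.2% of all genes (median 0.25). Its relative Fpr1 was 0.47 ± 0.11 (edgeR adjusted p = 0.068), the chemokine receptor Ccr1 0.61 ± 0.16 (0.081) and the ADP receptor P2ry13 0.46 ± 0.12 (0.081). In the interaction, which chose the 4 genes and is given with no test, 27 of the 34 were below 0, against 53% of all genes, with a median of −0.60.

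Of 23 paired myeloid receptors and signalling partners, the company of Cd33, 0 passed by edgeR and 14 were above 0, against 51.2% of all genes (median 0.15). Clec4a2 was 0.54 ± 0.10 (SE; edgeR adjusted p = 0.062), Cd300lf 0.67 ± 0.17 (0.081), and the adaptors Fcer1g 0.44 ± 0.12 (0.089) and Tyrobp 0.38 ± 0.14 (0.16). In the interaction 21 of the 23 were below 0, with a median of −0.36.

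Gpr65 feeds into the cyclic AMP pathway. Of 25 genes of that pathway 0 passed by edgeR, and 17 were below 0, against 48.8% of all genes (median −0.12). Prkaca, a catalytic subunit of protein kinase A, was −0.36 ± 0.10 (SE; edgeR adjusted p = 0.086), the adenylyl cyclases Adcy3 and Adcy9 −0.43 ± 0.13 (0.10) and −0.51 ± 0.18 (0.15), and the phosphodiesterase Pde3b −0.35 ± 0.13 (0.15).

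Of 18 genes that make and transfer sialic acid, the ligand of Cd33, 0 passed by edgeR and 12 were below 0, against 48.8% of all genes (median −0.07). St3gal4, a sialyltransferase, was 0.43 ± 0.10 (SE; edgeR adjusted p = 0.074), against −0.50 ± 0.14 (0.086) for St6gal1 and −0.35 ± 0.17 (0.27) for St8sia4. Gne, which starts sialic acid synthesis, was −0.23 ± 0.09 (0.19). In the averaged EMPA contrast, 0 genes passed in each of these lists by edgeR.

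Markers of myeloid cells moved with the 4 genes in part. The 12 mature neutrophil markers summed to 4882 to 5700 CPM (Sham), 5341 to 6490 (Sham-E), 6012 to 9730 (MI) and 5658 to 7400 CPM (MI-E), none of them at 0. In the same list 2 rose by edgeR in the averaged infarction contrast: Fpr2 and Wfdc21, a secreted neutrophil protein, at 1.05 ± 0.16 (SE; edgeR adjusted p = 0.039), where 0.139% of all genes rose. The Wfdc21 call too held in 3 of the 12 fits without 1 library (Sham-E 1, MI 2 or MI 3), with edgeR adjusted p from 0.00093 to 0.14. The 9 immature neutrophil markers summed to 18555 to 21533, 18420 to 37551, 22715 to 39517 and 24689 to 30032 CPM in the same order. The 11 monocyte markers summed to 2528 to 2946, 2555 to 5899, 3384 to 5237 and 3662 to 4128 CPM. Of these Cx3cr1, a receptor of patrolling monocytes, fell (−1.38 ± 0.25, edgeR adjusted p = 0.0496), where 22 of 15119 genes (0.146%) fell. The Cx3cr1 call held without each of the same 3 libraries and was lost without each of the other 9 (edgeR adjusted p from 0.0083 to 0.16). The 11 macrophage markers summed to 1033 to 1154, 838 to 1337, 952 to 1726 and 876 to 1131 CPM. In the averaged infarction contrast, 10 of 12 mature and 8 of 9 immature neutrophil markers were above 0, against 51.2% of all genes. So were 7 of 11 monocyte and 7 of 11 macrophage markers. The medians were 0.35, 0.35, 0.26 and 0.13 in that order. None of these list sums separated MI from the other 9 libraries, a pattern shown by 1.98% of all single genes. Wfdc21 of the mature neutrophil list showed it too, at 482 CPM or more in MI and at most 463 elsewhere. Fpr1 and Fpr2 of that list did not. Of the wider lists, Clec4a2, Ccr1, Cd300lf and Fcer1g were among the genes that showed it, so the pattern was not particular to the 4 genes. In MI 3 the mature neutrophil markers summed to 6012 CPM, the lowest of the MI libraries but above the Sham range. Their mean log2 CPM there was 8.20, inside the Sham range of 8.06 to 8.26, so the 2 measures differed. The macrophage markers of MI 3 were the highest of all 12 libraries. In the same library Slco4c1 (66.9 CPM) and Cd33 (563 CPM) were at their highest, Gpr65 (54.9 CPM) was the middle of the MI libraries and Gpr141 (112 CPM) the lowest of them. The part of cell numbers in the levels of the 4 genes was not tested.

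Across the 12 libraries the 4 genes moved together, which follows from the MI peak that they share. Pearson's r of log2 CPM between pairs ran from 0.68 (Gpr141 and Cd33) to 0.90 (Gpr141 and Gpr65). Once each library was taken as its deviation from its group mean, r ran from −0.19 (Gpr141 and Cd33) to 0.52 (Slco4c1 and Cd33), so within groups the genes were loosely tied. These are descriptions over 12 libraries, in which the 4 groups and the library depths are shared by all points. The within-group SD of log2 CPM was 0.12 for Slco4c1, 0.13 for Gpr141, 0.18 for Gpr65 and 0.20 for Cd33.

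The genes whose log2 CPM was most like the mean of the 4 over the 12 libraries, out of 10929 ranked, were Antxr2 (r = 0.98), an anthrax toxin receptor, and Slc35a5 (0.95), followed by Nsmce2, Zfp277, Cog2, Sike1, Clec4a1 and Tlr13 (0.95 to 0.93). Antxr2 averaged 56.3 CPM in Sham, 62.8 in Sham-E, 84.2 in MI and 60.4 in MI-E. Nearest to Slco4c1 was Vps54 (0.95), a subunit of a vesicle tethering complex, and nearest to Gpr141 was Zfp992 (0.97), with the C-type lectin Clec4a1 (0.94) and the endosomal RNA sensor Tlr13 (0.92) among the next 4. Nearest to Gpr65 was Laptm5 (0.92), a lysosomal membrane protein of blood cells, and nearest to Cd33 was Ist1 (0.97), which acts in endosomal sorting. On deviations from group means the lists changed: of the 5 genes nearest to each of the 4, only Ttc39b, for Cd33, was in both (0.95, and 0.89 on deviations).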

How the data were processed

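Total RNA of mouse bone marrow was sequenced in 12 libraries. Per the submitters' processing notes, CASAVA 1.8, STAR 2.4.0j, RSEM and build mm10 were used. The authors deposited expected counts per gene, unscaled, and TPM values. Counts, whole in the file, were rounded as a safeguard and tested with edgeR 4.0.16 (R 4.3.3): filterByExpr by group, TMM factors from 0.94 to 1.06, the robust quasi-likelihood F-test with a mean for each of 4 groups (8 residual degrees of freedom) and Benjamini-Hochberg adjustment over 15119 genes at 0.05. SE is the log2 fold change over the root of F. Sham and MI-E columns carry numbers that differ from the sample titles, so they were matched to their group only.

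The genes and the lists were chosen with earlier results of these data known. Contrasts that chose the genes carry no p. Of the transporters, proton-sensing receptors and Siglecs, the tested members are named, and 1 gene of the lists is not reported here; of other lists, up to 4 with the smallest p; of like genes, 5 per gene and 8 for the mean of the 4, by Pearson's r among genes with a mean of at least 1 log2 CPM. Insert length was fitted in genes with 1 transcript of 1000 to 8000 bases, at least 500 counts and 5 TPM. Symbols came from the tables, 2 by gene ID (Gpr141b and Siglecf), positions from GENCODE M21 (53620 of 53801 IDs) and promoters from RefSeq, GRCm38.p6. The tests were tried on simulated counts. 20 alternatives were run: DESeq2 1.42.0, limma 3.58.1 on log2(TPM + 1) and on log2(TPM + 0.1), other scaling and filters, a replicate block, and leaving out each library.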

Additional observations from a re-analysis of the deposited data

Results flagged for a closer look

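The difference with EMPA was not the same in infarcted and in sham marrow for all 4 genes. The interaction on the log2 scale was −1.06 for Slco4c1, −0.96 for Gpr141, −1.16 for Gpr65 and −0.90 for Cd33. These values chose the genes, so no test is read from them. Groups of 3 libraries are too small for a formal outlier test of a single library.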

How the results depend on the processing

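The interaction of the 4 genes was below 0 under all 20 alternatives, from −1.13 to −0.96 for Slco4c1, −1.03 to −0.86 for Gpr141, −1.25 to −1.04 for Gpr65 and −1.02 to −0.75 for Cd33, of which leaving out 1 library gave −1.13 to −0.96, −1.03 to −0.86, −1.25 to −1.04 and −1.02 to −0.76. The interaction chose the 4 genes in these same libraries, so its stable sign is a description and no support. The counts of genes passed over the whole table were not stable, and the cause was not tested. In the averaged infarction contrast, 43 genes by edgeR became 113 with no filter, 1132 by DESeq2 (589 of them higher), 334 by limma on log2(TPM + 1) (32 higher), 240 with a pseudocount of 0.1 (22 higher), 11 on TPM with no filter (3 higher) and 0 with the replicate block, and 0 to 1616 without 1 library (1616 without Sham-E 1, 1421 without MI 2, and 0 to 12 without each of the other 10). In the averaged EMPA contrast, 0 became 1 with no filter, 9 by DESeq2, and 2, 2 and 3 in the TPM fits, and 0 to 11 without 1 library (11 without MI 1). In the interaction, 1 became 167 by DESeq2, 15, 12 and 8 in the TPM fits and 0 with the replicate block, and 1 to 150 without 1 library (150 without MI 1, 2 without Sham-E 2).

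In the averaged infarction contrast DESeq2 called Gpr141 (0.27, adjusted p = 0.049), Gpr65 (0.41, 0.018) and Cd33 (0.47, 0.0096), among 1132 of 15107 genes called in all. The TPM fits by limma gave −0.08 for Gpr141 (−0.0785, −0.0803 and −0.0785; adjusted p = 0.66 to 0.68). Without 1 library the estimates ran from 0.18 to 0.27 for Slco4c1, 0.22 to 0.33 for Gpr141, 0.36 to 0.48 for Gpr65 and 0.40 to 0.53 for Cd33. In the averaged EMPA contrast they ran from −0.37 to −0.29, −0.0596 to 0.0330, −0.13 to −0.02 and −0.49 to −0.36. The Cd33 difference between MI-E and Sham-E turned to −0.21 in the TPM fits (−0.206, −0.209 and −0.206). Its difference between Sham-E and Sham turned to −0.03 on log2(TPM + 1), and kept the sign of the main fit in 14 of 20 alternatives.

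Without 1 library, a choice made after seeing the data, the Gpr141 length differed by 279.9 to 363.7 bases with infarction and −123 to −39.6 with EMPA, and the Cd33 length by 128.6 to 305 and −154 to 22.1 (22.1 without Sham-E 1).

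With the replicate block, the Gpr141 estimate in the averaged EMPA contrast was 0.0127. No pairing of the libraries by number was seen: of 13 same-number pairs, 4 had deviations correlated over 0.1 (r from −0.21 to 0.15). Of 12 libraries, 4 correlated best with their own number. Deviations within groups of 3 libraries cannot exclude that the numbers mark something shared.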
